A study of Arabidopsis thaliana with 4 samples.

Results

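Plates 31 to 36 of the TA series, called A plates here, are a stretch of array probes that lies between a pair of long blocks with low values, A plates 21 to 30 and A plates 37 to 51. Members were taken by probe name alone: every named well of these 6 plates that had a value. All 576 wells had one, out of 21728 valued probes on the array. The stretch was picked because of its own level and that of its neighbours in these same arrays, so its levels and counts are given as a description and carry no test.

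The arrays measured dimethylation of lysine 4 of histone H3 (H3K4me2) in untreated Arabidopsis thaliana plants of the ecotype Col-0, taken whole as seedlings at 10 days of age from liquid culture. There was a single group with no other genotype, treatment or stage: chromatin precipitated with an antibody against H3K4me2 was hybridised with its own input DNA on 2-colour arrays. The group had 2 replicates, I and II, each hybridised in both dye orientations on 4 arrays in all. Whole seedlings mix many cell types, and an array cannot tell fewer cells carrying a mark from less of the mark per cell.

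H3K4me2 is placed by methyltransferases of the SET domain family. In plants it is generally found along genes, both transcribed and silent ones, and it is scarce over the transposon-rich heterochromatin around centromeres, where dimethylation of lysine 9 prevails instead. On a tiling array, neighbouring stretches of genes and of repeats can therefore differ in level. The probes are named by plate and well only, and no gene, position or sequence was tied to them here.

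The deposited values are log ratios of the 2 channels whose base is not stated. They did not settle whether a positive value means more immunoprecipitate or more input. The columns of a dye swap were copies of each other (0 features differed), which leaves 1 profile per replicate and n = 2. The deposited medians of the array were -0.02 (I) and 0.47 (II). These medians were subtracted, so that every value below is a distance from the median probe in deposited units, with I or II for the replicate where both are given. "Called" means past an adjusted p of 0.05 in limma's test against the median over all 21728 probes. Separate cultures for I and II are not stated in the labels. The p-values behind the calls thus reflect only how far these samples spread, which can be technical.

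The 576 probes lay on both sides of the array median and close to it as a whole. Their median was -0.17 (I) and -0.10 (II) and averaged -0.13 ± 0.05 (SD, n = 2). The middle of the distribution was wide: the lower and upper quartiles averaged -0.88 and 0.50. A total of 190 probes (33.0%) were called higher than the array median, beside 40.3% of all probes on the array. A further 247 (42.9%) were called lower, beside 40.2% of all probes, and 139 did not pass the threshold. The most common value of the whole array lay 0.51 above its median in replicate I and 0.63 above it in replicate II. Relative to that value, 61 probes were called higher and 370 lower, beside 13.9% and 57.1% of all probes. On the deposited values without centring, 173 probes were called higher and 159 lower, beside 37.3% and 27.5% of all probes, and the median was 0.09. "Higher" and "lower" therefore depend on the centre and are no measure of which sequence carries the mark.

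The flanking blocks were much lower and far less mixed. The median of the 576 probes, -0.13 ± 0.05, stood against -1.29 ± 0.07 in A plates 21 to 30 (884 probes) and -1.63 ± 0.10 in A plates 37 to 51 (1352 probes; SD, n = 2 each). Probes with a replicate mean under -1 made up 20.3% of the stretch, against 66.0% and 88.8% of the blocks before and after it. Probes at 1 or above made up 8.16% of the stretch, against 1.92% and 0.37% of these blocks. Over all probes of the array these shares were 22.4% under -1 and 11.1% at 1 or above, both larger than in the stretch. All 3 stretches were chosen on these values, so the differences were not tested.

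**Figure D1:**
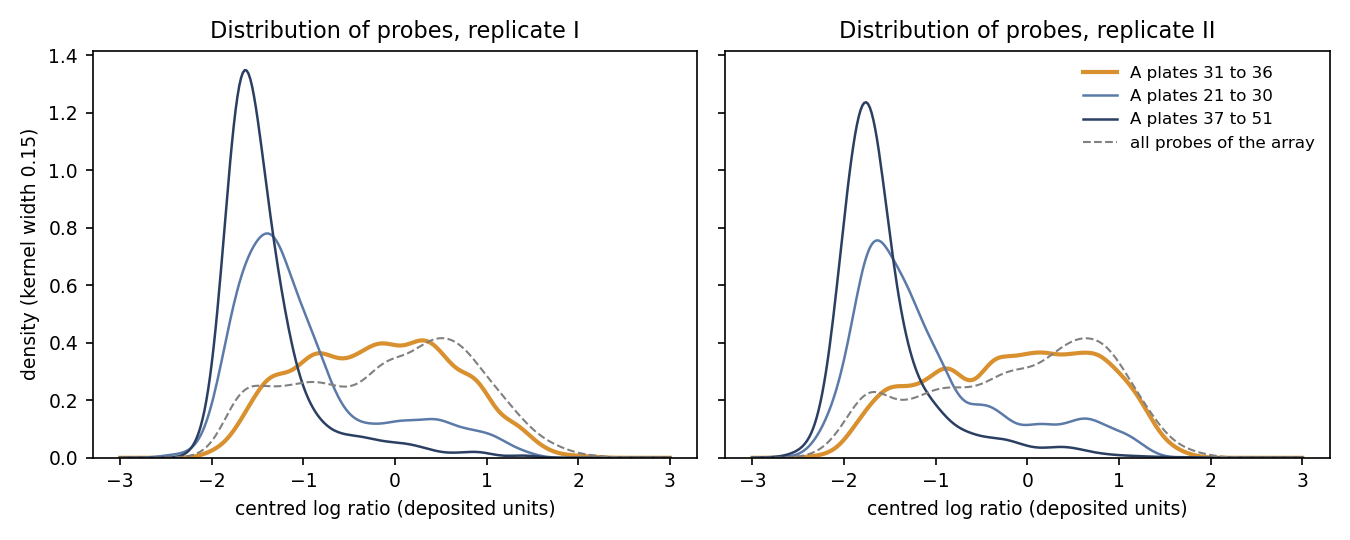
Kernel density of the centred log ratios (x axis, deposited units; kernel width 0.15) in replicate I (left) and replicate II (right), for A plates 31 to 36, both flanking blocks and all probes of the array. The stretch is broad, with quartiles averaging -0.88 and 0.50, whereas both blocks peak sharply below -1.3.

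The shape of the distribution was broad with no single dominant level. With a kernel width of 0.2, the density in replicate I peaked at -0.75 and 0.22, and that in replicate II at -0.88, 0.16 and 0.52. The peaks were shallow: in replicate I the densities were 0.355 at the lower and 0.399 at the upper peak. A plates 21 to 30 had a high peak at -1.40 and a small one at 0.31 in replicate I, and peaks at -1.60 and 0.60 in replicate II. A plates 37 to 51 had a single peak at this width, at -1.61 (replicate I) and -1.76 (replicate II). A plates 70 to 99, another stretch of mixed level later in the series, had 34.7% of 2874 probes called lower and 40.3% called higher.

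The 6 plates did not share a level, and plate 34 was the lowest of them. Plate 31 had a median of -0.09 in replicate I and 0.11 in replicate II, and plate 32 of 0.17 and 0.14. Plate 33 was at -0.07 and -0.01. These first 3 plates thus sat around the array median. Plate 34 was at -0.92 (I) and -0.94 (II). Plate 35 followed at -0.42 and -0.49, and plate 36 at -0.03 and 0.16. Plate 34 lay below the other 5 plates in both replicates. The SD between the replicate medians was 0.02 in plate 34 and up to 0.14 in the other plates (plate 31). Differences between plates were not tested. Without plate 34, the median of the remaining wells was -0.02.

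The share of called probes changed with it. Plate 34 had 9 probes called higher and 68 called lower. Plate 32 was at the other end, with 41 higher and 23 lower. Plates 31 and 33 were balanced, at 34 higher and 35 lower in plate 31 and 33 higher and 32 lower in plate 33. Plates 35 and 36 were as rich in higher probes, with 33 and 40, but held more lower ones than plate 32, with 51 and 38. In 4 of the 6 plates (31, 33, 35 and 36) at least 30% of the probes were called in each direction, which held for 46 of all 231 plates of the array, these 4 included.

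**Figure D2:**
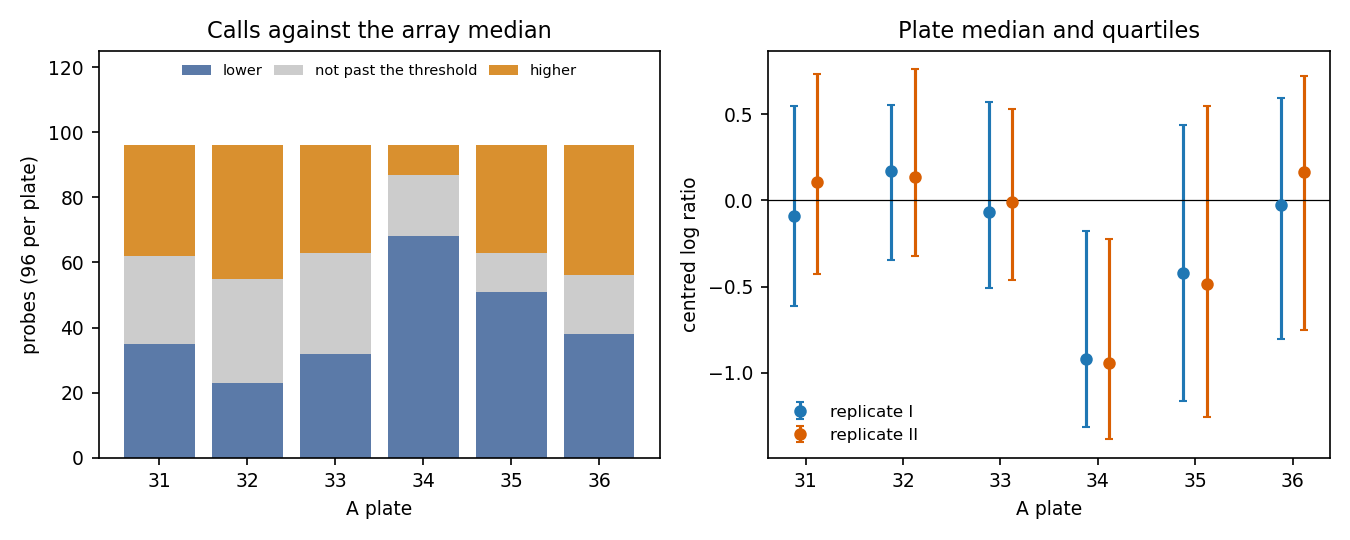
Left, number of probes (y axis, 96 per plate) called lower, not past the threshold and called higher than the array median in each plate. Right, median centred log ratio of each plate in replicates I and II, with bars from the lower to the upper quartile over its probes. Plate 34 stands out with 68 lower probes and medians of -0.92 and -0.94.

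In order of plate, row and column, the values alternated between runs of high and of low probes. The 190 higher probes fell into 46 runs of consecutive wells, on average 4.13 probes long, and 10 of these runs were single probes. The 247 lower probes fell into 54 runs, on average 4.57 probes long, of which 16 were single probes. Most called probes belonged to longer runs: 14 higher runs of at least 5 probes held 117 of the higher probes, and 20 lower runs of that length held 183 of the lower ones. The longest runs had 20 probes on the high side and 19 on the low side. In the flanking blocks the low runs reached 145 and 272 probes, and the longest high runs had 8 and 5.

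The longest high run lay in plate 36 and covered 20 wells from TA36A11 to TA36C06. Its median was 0.73 (I) and 0.86 (II). The replicate means of its probes ranged from 0.41 to 1.85. Means above the array median follow from the calls that make up a high run. The run held TA36B11, the highest of all 576 probes, at 2.04 (I) and 1.66 (II). The run began at TA36A11 with 0.84 and 0.89 and faded towards TA36C06 with 0.19 and 0.64. The neighbouring well before it, TA36A10, was at -1.31 and -1.06, so the run opened abruptly and closed gradually.

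The second longest high run lay in plate 35, in 15 wells from TA35C08 to TA35D10. Its median was 0.80 (I) and 0.89 (II), and its probes ranged from 0.35 to 1.36. It too opened with a jump, which is described with the other steps. A pair of runs of 10 probes came next, both in plate 32. The first, TA32A06 to TA32B03, had medians of 0.51 and 0.81, and the second, TA32D05 to TA32E02, had 0.75 and 0.82. The replicates differed most in the first of them, whose opening probe TA32A06 was at 0.25 (I) and 0.93 (II). Among the 5 highest probes, TA33D05 (1.82 and 1.71), TA35G09 (1.66 and 1.43), TA32C08 (1.50 and 1.57) and TA31F03 (1.54 and 1.48) followed TA36B11. These 5 probes thus came from 5 different plates, and plate 34 held none of them.

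The 5 low runs of at least 10 probes all lay in plates 34 to 36. The longest, with 19 probes, closed plate 36 and is the drop described below. The next covered 18 wells of plate 35, from TA35F02 to TA35G07, with medians of -1.54 in replicate I and -1.65 in replicate II. It was the lowest of the long runs, and it held the lowest of all 576 probes, TA35F11, at -1.98 and -2.26. Low runs of 17 probes lay at TA34B06 to TA34C10, with medians of -1.28 and -1.48, and at TA34H11 to TA35B03, with -0.99 and -1.18. The run TA34H11 to TA35B03 crossed the border of plates 34 and 35. A run of 15 probes, TA34G03 to TA34H05, had medians of -1.33 and -1.46. In plates 31 to 33 no low run was longer than 8 probes, and the median of the run TA31A09 to TA31B04 was -0.69 and -0.65.

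Some of the low wells reached the level of the flanking blocks. Values under -1 in both replicates were found in 96 of the 576 probes (16.7%), beside 19.8% of all probes on the array. The share was 59.8% in A plates 21 to 30 and 86.3% in A plates 37 to 51. In A plates 70 to 99 it was 9.26%. Plates 31, 32 and 33 held 4, 5 and 8 of the 96 probes, and plates 34, 35 and 36 held 37, 26 and 16. They fell into 34 stretches, of which 4 had at least 5 probes and together held 47 probes. These were TA34B11 to TA34C10 (12 probes), TA34G09 to TA34H05 (9 probes), TA35F03 to TA35G07 (17 probes) and TA36G08 to TA36H04 (9 probes). Their medians were -1.55 ± 0.26, -1.47 ± 0.10, -1.61 ± 0.10 and -1.45 ± 0.09 in this order (SD, n = 2 each), between the medians of both flanking blocks. Medians under -1 follow from how these stretches were picked, whereas the block medians cover all their wells. A plates 70 to 99 held 10 such stretches of at least 5 probes, the longest of 17. In plates 31 to 33 such low values came as single wells or pairs. The pair TA32E05 and TA32E06, for example, had -1.44 and -1.61 (replicate I) and -1.99 and -1.50 (replicate II), directly next to a well called higher, TA32E07.

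A running median over 11 probes gave the same stretch as a sequence of broader domains. A domain was counted where this median lay on the same side of 0 in both replicates over at least 6 positions. There were 24 domains, 13 above the array median with 222 probes and 11 below it with 287 probes, and 67 probes lay in none. Domains above the median had a median length of 17 probes and a longest of 42, from TA32G04 to TA33B09. Their levels ran from 0.26 to 0.97. Domains below had a median length of 14 probes, but the longest held 123, and their levels ran from -1.52 to -0.42.

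In plates 31 to 33, domains above and below the array median alternated, at uneven lengths from 7 to 42 probes. The domain TA31B09 to TA31E01 (29 probes) was at 0.76 (I) and 0.77 (II). It was followed after a short dip and a short rise by TA31F06 to TA31H06 (25 probes), at -0.67 and -0.42. The 42 probes from TA32G04 to TA33B09 were at 0.37 in both replicates. Of these, 22 were called higher, 4 lower and 16 neither, so this long domain was only moderately high. The last domain of this kind below the median was TA33E03 to TA33G07 (29 probes), at -0.51 and -0.39. Levels of the low domains in plates 31 to 33 stayed between -0.59 and -0.42, above those of the low domains from plate 34 on, which lay between -1.52 and -0.85.

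The longest domain covered nearly all of plate 34 and the first 31 wells of plate 35, from TA34A05 to TA35C07. Its median was -0.89 (I) and -0.96 (II). Of its 123 probes, 94 were called lower, 10 higher and 19 neither. It was no uniform block: the low wells were broken by 6 short runs of higher probes, each of 1 to 3 wells. The largest values in these islands were those of TA35B04, at 1.31 (I) and 0.99 (II), a probe chosen after its values were seen. The others were lower, such as the pair TA34D04 and TA34D05 with a run median of 0.60, and TA34B02 to TA34B04 with 0.37. Levels above 0 in these islands follow from the calls that define them. The replicates could still differ, with TA34F08 at 0.61 in replicate I and only 0.17 in replicate II.

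From TA35C08 to TA36C06, high and low domains followed each other. The domain TA35C08 to TA35E01 was at 0.55 (I) and 0.80 (II). The low domain TA35E11 to TA35G07 came after a stretch of mixed wells and was at -1.46 and -1.58. It was followed by TA35G11 to TA35H12 at 0.33 and 0.28, and by 7 low wells, TA36A04 to TA36A10, at -1.01 and -0.69. The high domain of plate 36 described above came next. Between TA36D03 and TA36G03 the domains were short and all above the median, with 7 wells at 0.98 and 0.96 from TA36D03 to TA36D09, and 10 wells at 0.17 and 0.40 from TA36E05 to TA36F02.

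Measured from the median of its own domain, TA32E05, at -1.44 and -1.99, was the furthest below among the high domains, in one at 0.17 and 0.61. TA36G04, at 0.61 and 0.95, was the furthest above among the low domains, in the last one of plate 36. It lies before the fitted drop there, and the running median takes such edge wells into the neighbouring domain.

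**Figure D3:**
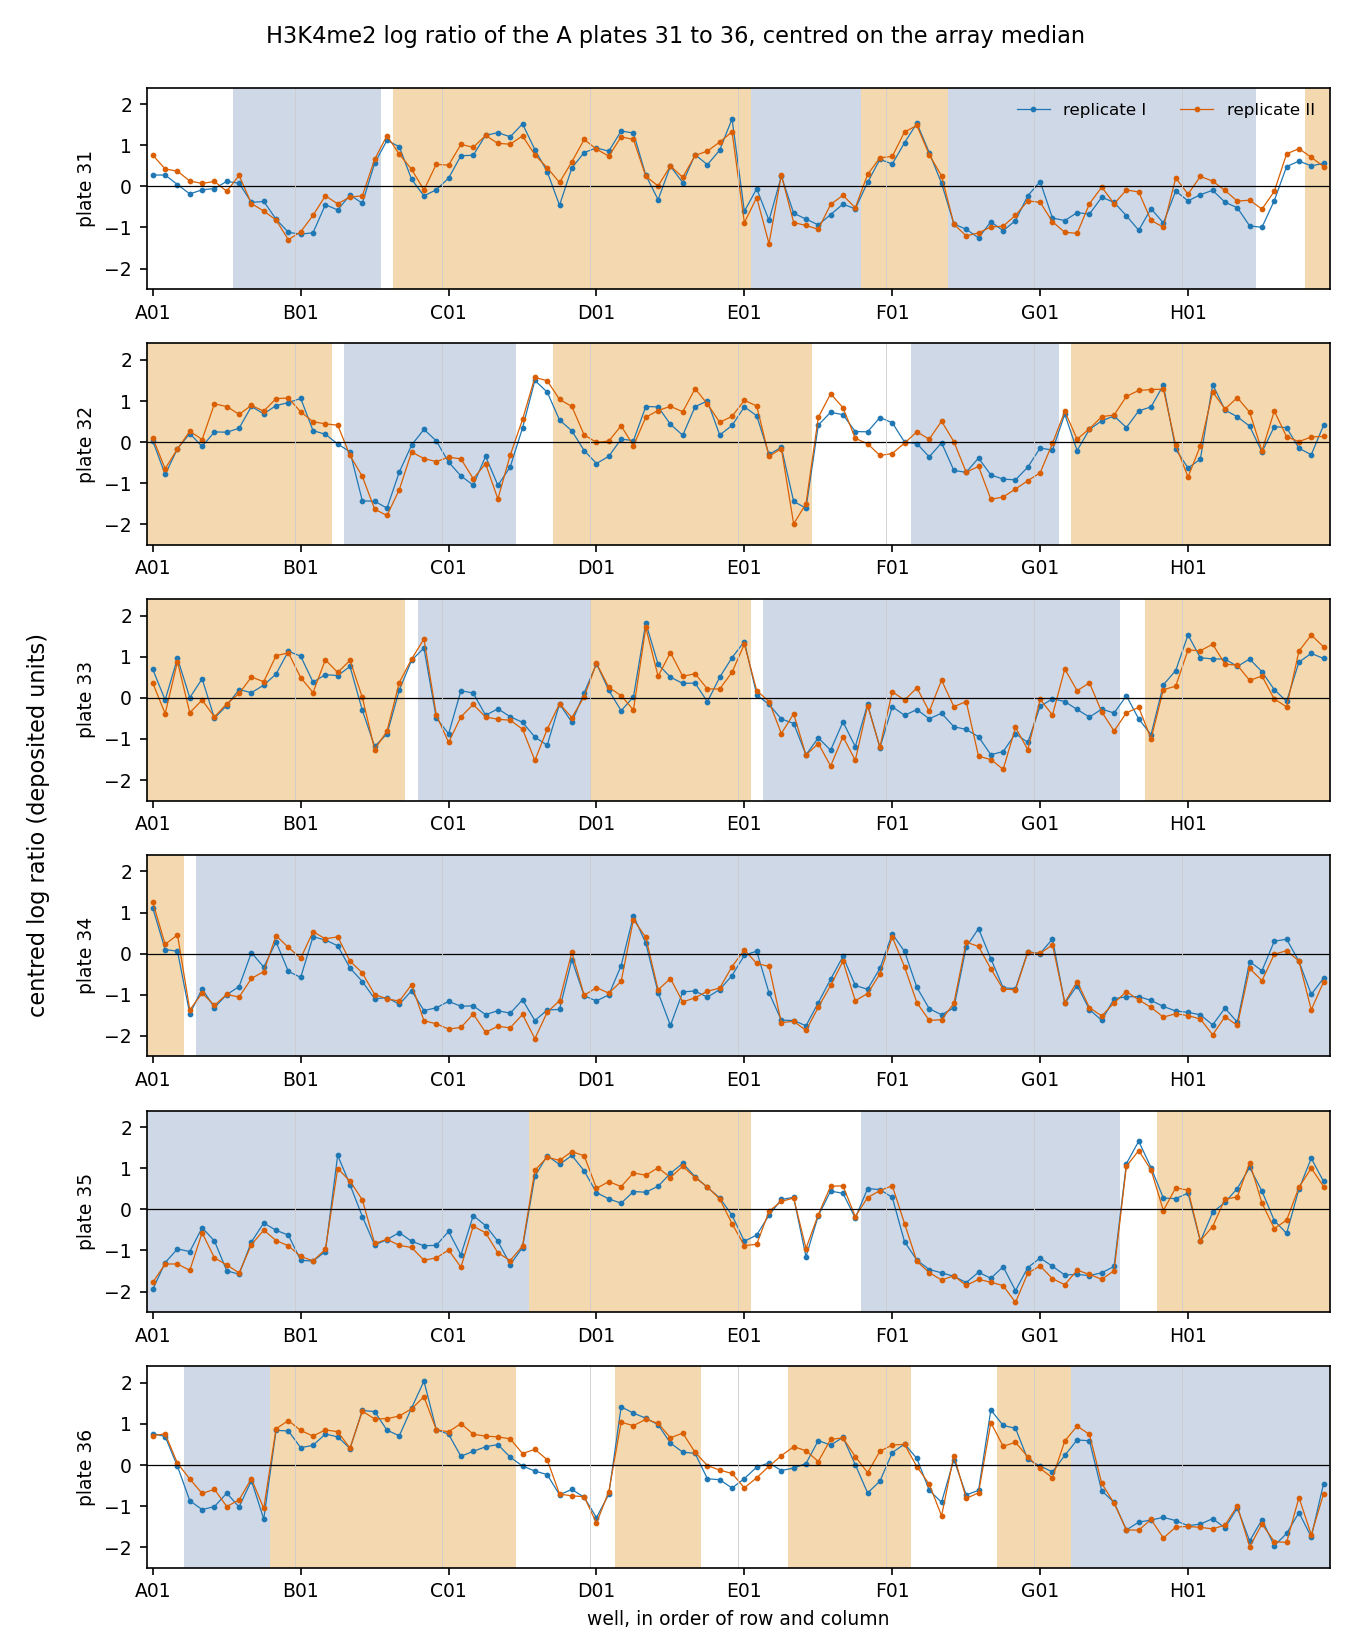
Centred log ratio (y axis, deposited units) of each well of A plates 31 to 36 in order of row and column (x axis), 1 panel per plate, with replicates I and II as separate lines. Orange and blue shading marks domains above and below the array median; the longest domain, 123 probes below it, fills nearly all of plate 34 and runs into plate 35.

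Large changes of level within a few wells recurred. A step was counted where the median of 6 probes differed from that of the 6 before by more than 1 in both replicates, and by more than at the wells around it. This also counts gradual changes. At the step between TA34B07 and TA34B08, for example, the replicate means of these wells were -1.05 and -1.08. There were 22 steps, 12 upwards and 10 downwards. The upward ones ranged from 1.03 to 2.32 and the downward ones from -1.05 to -2.03. Plate 34 held 6 steps, plate 35 held 4, and each of the other plates held 3. The largest lay between TA35G07 and TA35G08, where the level rose by 2.27 in replicate I and 2.38 in replicate II. TA35G07 was at -1.39 and -1.49 in replicates I and II, and TA35G08 at 1.11 and 1.05. The largest downward step, between TA34A03 and TA34A04, was -1.84 (I) and -2.21 (II) and opened the long low stretch of plate 34.

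Single neighbouring wells could differ as much. The absolute difference between consecutive wells of the same plate had a median of 0.31 over 570 pairs, and 46 of all 575 pairs differed by more than 1. The largest fall between neighbouring wells separated TA31E01, at -0.61 and -0.88, and the well before it, TA31D12, at 1.64 and 1.33. These wells close row D and open row E, at opposite ends of the plate. The largest rise was 2.50 (I) and 2.54 (II), between TA35G07 and TA35G08. Other large rises differed more between replicates, with 2.13 (I) and 1.69 (II) between TA36D02 and TA36D03 and 2.34 (I) and 1.97 (II) between TA35B03 and TA35B04.

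None of the 22 steps lay at a plate border (0 at the 5 borders inside the stretch). Borders make up only 5 of the 575 consecutive pairs, so a count of 0 was likely wherever the steps fell. An effect of borders was not tested. Over these borders, the wells on either side differed by a median of 0.25. TA33H12, at 0.96 and 1.24, was followed by TA34A01 at 1.11 and 1.25, inside a high run of 4 wells that crossed the border. TA35H12, at 0.68 and 0.55, was followed by TA36A01 at 0.76 and 0.71. The border of plates 34 and 35 differed most, with TA34H12 at -0.60 and -0.69 and TA35A01 at -1.94 and -1.78, although both wells belonged to the same low run.

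At its start, the stretch joined the first low block without a change at the plate border. The last 3 wells of plate 30, TA30H10 to TA30H12, were already above the array median, with 1.30, 1.33 and 0.40 (replicate I) and 1.21, 1.35 and 0.49 (replicate II). The first 3 of plate 31, TA31A01 to TA31A03, had 0.28, 0.28 and 0.04 (replicate I) and 0.76, 0.42 and 0.37 (replicate II). The rise out of the block thus lay before the border, and the wells just inside it were near or above the array median. Plate 30 as a whole was still low, with a median of -1.15 in replicate I and -1.06 in replicate II. It held 16 probes called higher and 76 called lower, so high wells were present in the last plate of the block as well.

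At its end, the stretch passed into the second low block before plate 36 was complete. A fit with 2 levels over plate 36 and the first 48 wells of plate 37 placed the drop after 77 wells in replicate I and after 78 in replicate II. On the replicate means it lay between TA36G05 and TA36G06, which left 19 wells of plate 36 below it. The last wells before it, TA36G04 and TA36G05, had 0.61 and 0.59 (replicate I) and 0.95 and 0.75 (replicate II). The first wells after it, TA36G06 and TA36G07, had -0.63 and -0.91 (replicate I) and -0.45 and -0.93 (replicate II). The fall was thus spread over about 3 wells, since TA36G08 reached -1.58 in both replicates. This drop is part of what defined the stretch, so it is given without a test.

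After the drop all 19 wells were called lower, whereas the 77 wells before it held 40 called higher, 19 lower and 18 neither. The median of the 19 wells was -1.35 (I) and -1.51 (II), against 0.21 and 0.41 in the 77 wells before it. The wells after the drop ranged from -1.92 to -0.54. They included TA36H06, at -1.85 and -1.99, and TA36H08, at -1.96 and -1.86, the next lowest of the 576 probes after TA35F11. The median of the 19 wells lay somewhat above that of plate 37, which was -1.65 (I) and -1.67 (II).

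The drop and the start of plate 37 formed a continuous low run across the border. The last 3 wells of plate 36, TA36H10 to TA36H12, had -1.16, -1.75 and -0.45 (replicate I) and -0.79, -1.69 and -0.70 (replicate II). The first 3 of plate 37, TA37A01 to TA37A03, had -1.73, -1.90 and -1.82 (replicate I) and -1.66, -2.00 and -1.62 (replicate II). The low run of consecutive calls extended from TA36G06 to TA37B02, over 33 wells. It ended at TA37B03 to TA37B05, 3 high wells that reached 1.56. High wells of the kind seen in plates 31 to 36 thus occurred past the border too, but plate 37 held only 5 probes called higher among 96. Without the 19 wells after the drop, the median of the remaining 557 probes was -0.10 ± 0.07 (SD, n = 2).

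**Figure D4:**
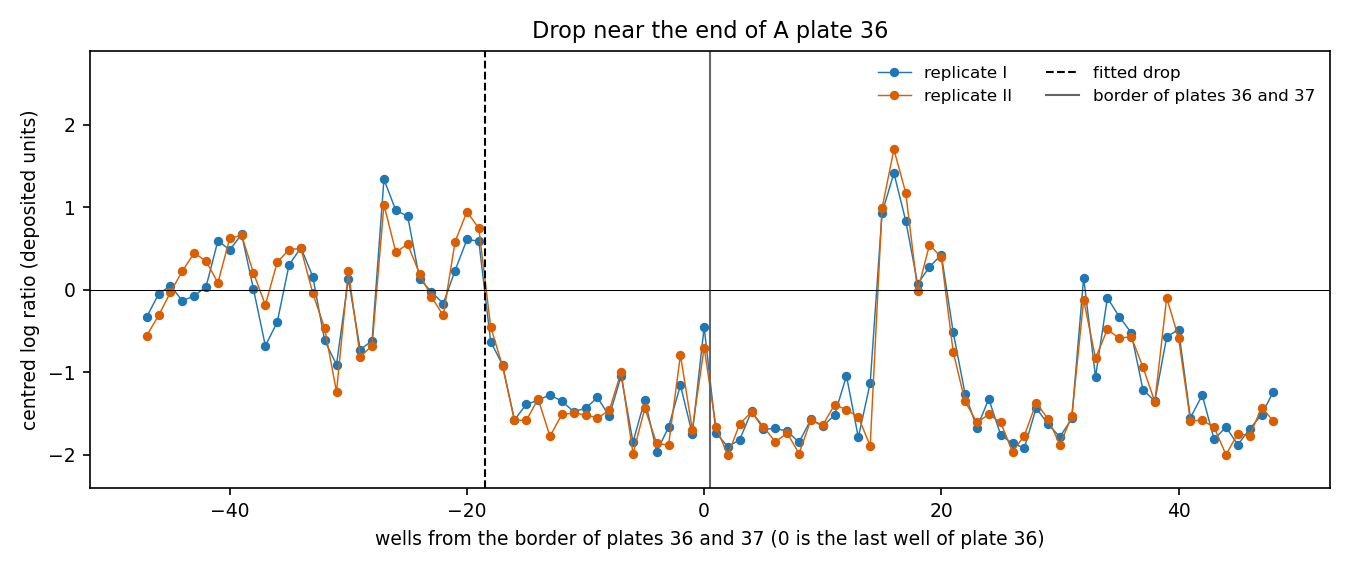
Centred log ratio (y axis, deposited units) of single wells in the last part of plate 36 and the first of plate 37, for replicates I and II, against the distance in wells from the plate border (x axis). The dashed line marks the fitted drop, 19 wells before the border; all wells between it and the border are called lower.

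Profiles I and II were alike over the stretch as a whole, though less so in some plates. Pearson's r across the 576 probes, which share the same arrays and are not independent, was 0.947 and Spearman's rho 0.949. In 514 probes (89.2%) both replicates had the same sign, against 92.1% of all probes on the array. By plate, this share ran from 82.3% in plate 32 and 83.3% in plate 33 to 97.9% in plate 35. The difference of replicate I minus replicate II had a mean of -0.02 and an SD of 0.29 over the probes, close to the SD of 0.30 over the whole array. In the flanking blocks this difference averaged 0.07 and 0.14, so replicate I was somewhat higher than replicate II there after centring. Replicate II spread more widely, with an SD over the 576 probes of 0.90, against 0.83 in replicate I.

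A few wells disagreed clearly. The largest difference was that of TA34D07, at -1.75 (I) and -0.61 (II). TA31G09 was at -1.07 and -0.14. TA32E12, at 0.60 and -0.32, TA33G05, at -0.47 and 0.36, and TA33F05, at -0.37 and 0.43, had opposite signs in the replicates and were not called. TA36C02, inside the longest high run, was at 0.21 and 1.01. Of these 6 wells, 3 were called all the same, since limma took the spread of each probe mostly from all probes pooled.

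The offset between replicates varied by plate and, within plates, by column. Its mean was -0.08 in plate 31 and -0.09 in plate 32, and 0.06 in plate 34. Even columns averaged -0.14 in plate 32 and 0.09 in plate 33, and odd columns -0.03 and -0.09. Over all 6 plates these offsets nearly cancelled, at -0.04 in even and -0.01 in odd columns. All of them were small beside the levels of the runs described.

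Consecutive wells had similar values. The replicate means of neighbouring wells correlated with r = 0.775 over 575 pairs. The correlation was 0.592 between wells 2 apart, 0.425 for 3 apart, 0.273 for 6 apart, 0.132 for 12 apart and 0.0037 for 96 apart. Wells taken down the columns correlated with r = 0.128 only, so neighbours were more alike along rows than down columns. Neighbours in a column lie 12 apart in row order, so this value largely repeats the one for that distance. The difference between replicates was shared by neighbours as well, with r = 0.408 at 1 well and 0.226 at 2 wells, but 0.034 at 3 wells. It did not decline further with distance, at 0.065 for 12 wells, 0.093 for 48 and 0.098 for 96. These correlations are across probes of the same arrays, and pairs that overlap in a well are not independent.

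The decline with distance was much like that of other A plates. At 1 well, r was 0.775 in A plates 31 to 36, against 0.804 in A plates 21 to 30, 0.704 in A plates 37 to 51 and 0.714 in A plates 70 to 99. At 6 wells it was 0.273, against 0.289, 0.242 and 0.241 in the same order. Runs of called probes in A plates 70 to 99 had mean lengths of 3.92 probes on the high side and 3.31 on the low side, against 4.13 and 4.57 in A plates 31 to 36. The differences between stretches were not tested.

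**Figure D5:**
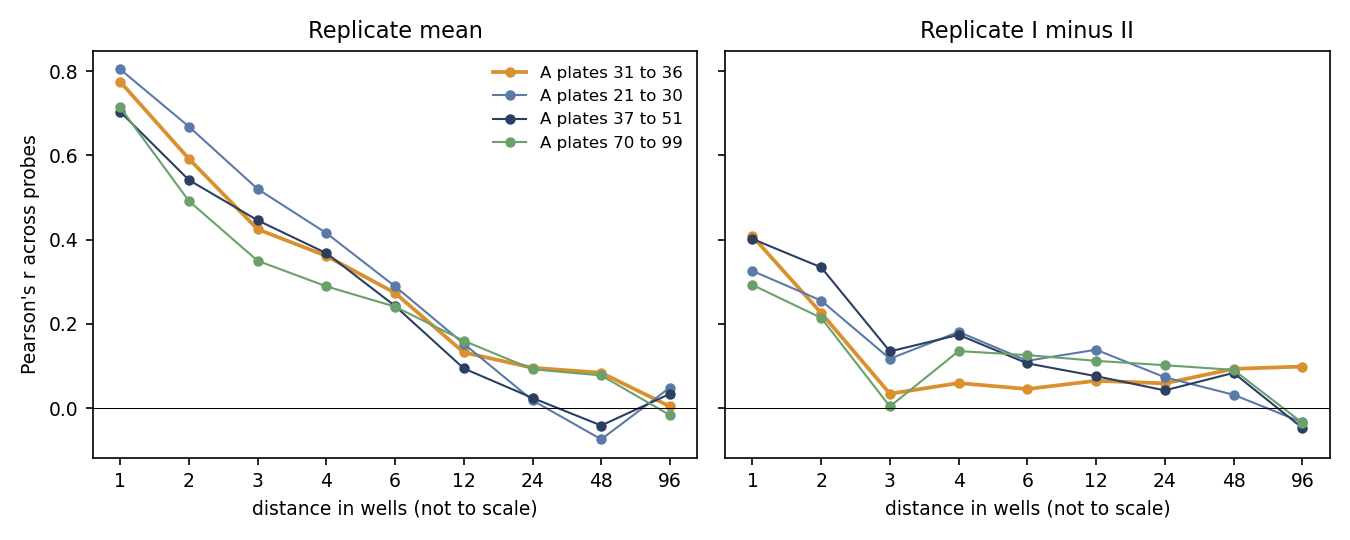
Pearson's r across probes (y axis) between wells at a given distance along the plate order (x axis, in wells, not to scale), for the replicate mean (left) and for replicate I minus II (right). In A plates 31 to 36 r falls from 0.775 at 1 well to 0.132 at 12 wells for the mean. For the difference it falls from 0.408 at 1 well to 0.034 at 3 wells and is 0.098 at 96 wells.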

How the data were processed

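Per the labels, each array received 15 µg of precipitated DNA and the same mass of input, amplified and labelled directly with Cy3 and Cy5. The deposited table gives 1 score per feature and array, handled here as a log ratio. Its base and direction, and how background and dyes were corrected, were not stated. Of 21761 named wells, 33 were empty. Without scanner intensities, signal over background was not examined, and the number of arrays limits the precision.

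Dye swap columns were averaged and each profile was shifted to a median of 0, with no loess or quantile step. limma 3.58.1 (R 4.3.3) tested each probe against 0, two-sided, with an intercept as the sole term, moderated variances and p-values adjusted by Benjamini-Hochberg over all 21728 probes. Its prior had an estimated 117 degrees of freedom, which 1 residual degree of freedom per probe determines poorly. With 2 replicates a sign-flip test cannot give a two-sided p below 0.5, so no level was tested over replicates. Wells were ordered by plate, row and column, 12 to a row and 96 to a plate.

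The members, named probes and summaries were chosen with earlier results of these data known. Named are the 5 highest and lowest probes, the ends of the longest runs, the 6 largest differences between replicates, the probes furthest from their domain, and wells at the drop and at the plate borders. Steps, stretches under -1, mixed plates, and the wells that bound domains, runs and steps were added after the values had been seen. Alternatives covered centring, scaling, threshold, minimum effect, prior degrees of freedom, a call without a test, windows, wells or plates left out, and leaving out each replicate. Python 3.11.15, numpy 2.4.6, pandas 2.3.3 and matplotlib 3.10.9 were used.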

Additional observations from a re-analysis of the deposited data

How the results depend on the processing

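Of 59 alternatives over 9 results, 15 moved a count by over 1.5 times or a level by more than the replicates' spread, and 44 did not. Centring on the main mode gave 61 higher probes with a longest run of 6 and a longest low run of 37. The median was then -0.71, with 12 domains. This centre lies above the array median by 0.51 in replicate I and 0.63 in replicate II, so the replicates were shifted by different amounts. Without centring, 159 probes were called lower and the median was 0.0894. A minimum effect of 0.5 gave a longest high run of 12, by construction. Without plate 34 the median was -0.0185, a choice made after seeing the data, as was leaving out the wells after the drop. The drop lay after 78 wells with plate 36 alone, with plates 35 to 37 and with least absolute deviations, and after 77 to 78 wells with 1 replicate left out. The correlation of consecutive wells was 0.128 down the columns and 0.751 to 0.776 with 1 replicate left out. For the other movements the cause was not tested. With 1 replicate left out, the median was -0.17 to -0.10 and the number of domains 25 to 26. Leaving out a replicate gives no call of single probes, so it was not run for counts and runs. No paired analysis was possible because the series has 1 group.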
